A study of Equus caballus with 45 samples.

Results

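The IFIT genes (interferon-induced proteins with tetratricopeptide repeats) measured here were IFIT2, IFIT3 and IFIT5, taken by gene symbol from both count tables, 3 of 20881 genes in all. RNA sequencing was performed on equine bone marrow mesenchymal stromal cells (MSC) that had been activated, and on joint cells exposed to conditioned medium (CM) of such MSC, 45 libraries in all. The MSC set held 12 libraries, with the donors PC, 99 and 92 once in each of 4 conditions: untreated, TLR3 agonist (poly I:C, a synthetic double-stranded RNA), STING agonist (2′3′-cGAMP, a cyclic dinucleotide) and a label CpG that the study's methods do not describe. The agonists were left on the MSC for 2 h, at 10 ng/mL in the labels and at the same number of µg/mL in the study's methods. According to the methods the MSC were then washed, and their RNA was taken after a further 24 h in growth medium. The joint cell set held 33 libraries, 11 each of synoviocytes, chondrocytes and monocyte-derived macrophages. In each cell type, 9 of these came from cells given IL-1β and TNF-α and CM of untreated MSC (resting MSC-CM), TLR3-activated MSC (TLR-MSC-CM) or STING-activated MSC (STING-MSC-CM) of the donors PC, ORC and AG1. The study's abstract has the cytokines left on for 2 h and washed off before CM, a step that its methods do not give. 1 further library per cell type came from cells with the cytokines alone and 1 from cells with no addition. The labels give the cytokines at 20 ng/mL for synoviocytes and 10 ng/mL for macrophages, and no dose for chondrocytes. The methods give 20 ng/mL for synoviocytes and macrophages and treat chondrocytes like synoviocytes. CM was left on the joint cells for 24 h, and RNA was taken after a wash and a further 24 h. According to the methods the joint cells came from 1 donor horse, and whether all 3 cell types came from the same animal is not spelled out. PC, ORC and AG1 are therefore read here as the MSC donors of the media, although the labels do not say so and also give such a name to the cells without medium, PC to the synoviocytes with cytokines alone and ORC to the others.

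IFIT proteins are cytosolic RNA-binding proteins that restrict viruses, chiefly by holding back foreign RNA from translation. IFIT2 and IFIT3 bind to each other and to IFIT1, IFIT3 stabilises that complex, and IFIT5 binds RNA on its own. Their genes are switched on by type I interferon through the receptor IFNAR and transcription factors that hold STAT2 and IRF9, and they can also answer directly to IRF3 and related factors once TLR3, RIG-I-like receptors or STING have sensed nucleic acid. In the RefSeq annotation of the TB-T2T assembly, used here for gene order only because the counts were made on EquCab3.0, IFIT5 and IFIT3 lie on chromosome 1 with LIPA between them.

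Total counts ran from 23525704 to 54103873 per library with a median of 31660884, so that a count of 3, taken as the floor, was worth 0.0554 to 0.128 CPM. CPM scales a gene's count to the total of its library. All 3 IFIT genes were above the floor in every library, and all 3 passed the filter of 10 counts in every fit. Levels are compared between libraries and not between the 3 genes, since gene lengths were not used. The macrophage libraries with resting MSC-CM held summed CPM of 12334 to 14457 over 17 macrophage markers, against 15.2 to 20.1 in synoviocytes and 15.0 to 17.2 in chondrocytes. COL2A1, the main collagen of cartilage, was at 0 to 0.368 CPM in the chondrocyte libraries and at most 0.0534 CPM with resting MSC-CM. Summed CPM over 13 chondrocyte markers was 222 to 607 in chondrocytes and 207 to 234 in synoviocytes with resting MSC-CM, while their mean log2(CPM + 1) was 2.16 to 2.51 in chondrocytes and 1.63 to 1.66 in synoviocytes. All 8 lymphocyte markers were above the floor in the macrophage libraries with resting MSC-CM, with a summed CPM of 292 to 345. In bulk RNA, fewer cells of a type and less RNA per cell cannot be told apart.

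IFIT3 had the largest range of the family in MSC. It was at 0.745, 1.96 and 0.915 CPM in the untreated libraries of donors 92, 99 and PC. After the TLR3 agonist it was at 0.171, 273 and 735 CPM in the same donors, and after the STING agonist at 86.1, 572 and 688 CPM. All 3 STING agonist libraries lay far above all 3 untreated libraries, whereas after the TLR3 agonist donors 99 and PC were high and donor 92 was below its own untreated level. In donor 92 the TLR3 agonist library held 6 IFIT3 counts, with an exact Poisson 95% interval of 0.0626 to 0.371 CPM, against 36 counts and 0.522 to 1.03 CPM untreated. Such intervals cover counting error only. Group means of IFIT3 were 1.21 ± 0.660 CPM untreated, 336 ± 371 CPM with the TLR3 agonist and 448 ± 319 CPM with the STING agonist (SD, n = 3).

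IFIT2 was at 1.22, 6.47 and 3.89 CPM in the untreated MSC of donors 92, 99 and PC. With the TLR3 agonist it was at 0.966, 28.0 and 169 CPM, and with the STING agonist at 19.3, 72.3 and 101 CPM. Under both agonists donor 92 was lowest and donor PC highest, and donor 92 was again without an increase under the TLR3 agonist. The means were 3.86 ± 2.63 CPM untreated, 66.1 ± 90.4 CPM with the TLR3 agonist and 64.3 ± 41.6 CPM with the STING agonist.

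IFIT5 started from a more even level, at 16.7, 13.3 and 14.2 CPM in the untreated MSC of donors 92, 99 and PC. It reached 19.4, 37.3 and 269 CPM with the TLR3 agonist and 80.0, 94.7 and 163 CPM with the STING agonist. Neither agonist group overlapped the untreated group, although the TLR3 agonist library of donor 92 exceeded the highest untreated library only slightly, by 1.16-fold over the same donor's untreated level. The means were 14.7 ± 1.75 CPM untreated, 109 ± 139 CPM with the TLR3 agonist and 113 ± 44.2 CPM with the STING agonist.

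**Figure D1:**
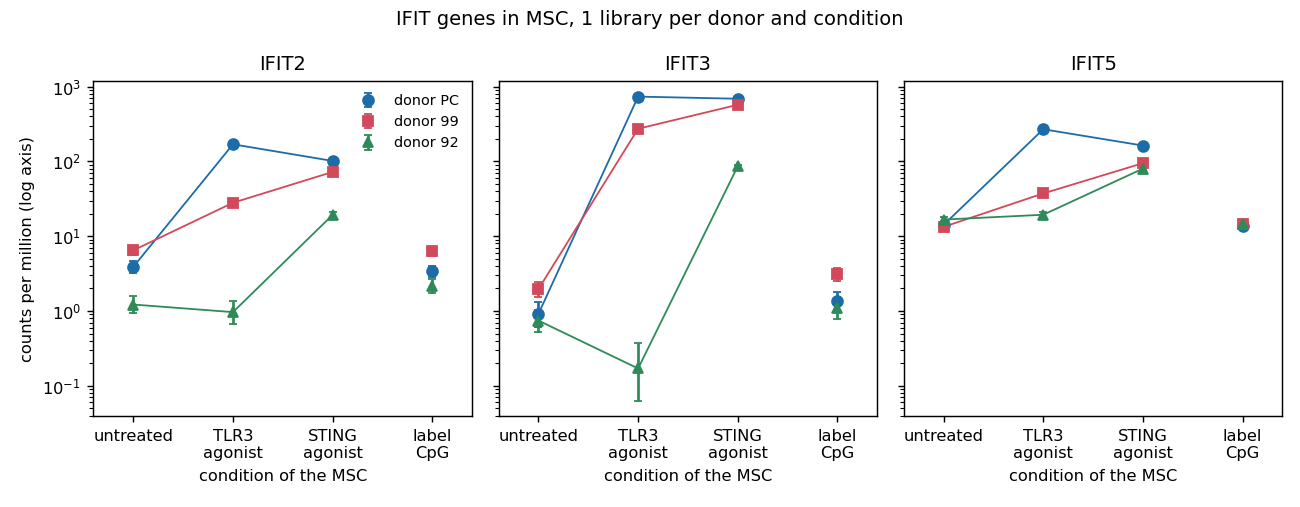
CPM of IFIT2, IFIT3 and IFIT5 on a log axis in MSC that were untreated, given the TLR3 agonist or the STING agonist, or labelled CpG, with 1 point per donor and vertical bars for the exact Poisson 95% interval; lines join the libraries of a donor. With the TLR3 agonist the library of donor 92 stayed low for IFIT2 and IFIT3, at 0.966 and 0.171 CPM, while all libraries with the STING agonist were above the untreated ones.

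Against untreated MSC, edgeR's quasi-likelihood test gave log2 fold changes after the TLR3 agonist of 4.14 (SE 1.51) for IFIT2, 8.17 (SE 2.22) for IFIT3 and 2.92 (SE 0.883) for IFIT5. IFIT2, IFIT3 and IFIT5 were higher in 2, 2 and 3 of 3 donors, and 6.11% of all genes were higher in all 3. The unadjusted edgeR p-values were 0.0242, 0.00562 and 0.00989, and with Benjamini-Hochberg adjustment over 14872 genes each was 1.00. None of the 3 genes passed the adjusted threshold of 0.05, which 0 of all genes tested passed (0%), whereas all 3 had an unadjusted p under 0.05, which 1.13% of all genes had. At the thresholds of the study, an unadjusted p of at most 0.05 with a log2 fold change of at least 2, all 3 were called higher against 0.719% of all genes. IFIT5 was the 1 member whose groups did not overlap, which 0.867% of genes showed in this direction.

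Whether edgeR called IFIT3 after the TLR3 agonist depended on the library of donor 92. Without it, edgeR gave a log2 fold change of 8.74 for IFIT3 (SE 1.06, adjusted p = 0.0216), 4.70 for IFIT2 (adjusted p = 0.316) and 3.4 for IFIT5 (adjusted p = 0.237). With donor PC's TLR3 agonist library left out instead, the values were 6.96 for IFIT3, 2.05 for IFIT2 and 1.04 for IFIT5, each with an adjusted p of 1.00. With DESeq2 and all libraries, IFIT3 passed the threshold (adjusted p = 0.00096) and IFIT2 and IFIT5 did not (adjusted p = 0.122 and 0.0748), among 48 genes called by that tool. Labels and files do not say whether the libraries of a donor came from separate cultures, and p-values here measure the spread between these libraries.

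After the STING agonist the log2 fold changes against untreated MSC were 4.05 (SE 1.51) for IFIT2, 8.53 (SE 2.25) for IFIT3 and 2.92 (SE 0.883) for IFIT5. Every donor was higher for every member, as for 15.2% of all genes, and for none of them did the groups overlap, which 4.03% of all genes showed in this direction. The unadjusted edgeR p-values were 0.0261, 0.00480 and 0.00991, against 2.06% of all genes with a p under 0.05. After adjustment 0 of 3 passed with edgeR (each 1.00), as did 0% of all genes, while DESeq2 called IFIT3 (adjusted p = 0.000163) and IFIT5 (adjusted p = 0.0438) but not IFIT2 (adjusted p = 0.0916), among 93 genes called. All 3 met the thresholds of the study, which 0.908% of all genes met in this direction.

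The 2 agonists share the untreated libraries. Within donors 92, 99 and PC the log2 change of IFIT2 under the STING agonist was 3.98, 3.48 and 4.70. For IFIT3 it was 6.85, 8.19 and 9.55, and for IFIT5 2.26, 2.83 and 3.52. Donor PC had the largest of the 3 changes for each gene. Under the TLR3 agonist the changes were -0.34, 2.11 and 5.44 for IFIT2, -2.13, 7.12 and 9.65 for IFIT3, and 0.21, 1.48 and 4.25 for IFIT5, which spread wider between donors than under the STING agonist for each member; that difference in spread was not tested.

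STING agonist against TLR3 agonist gave no call. The edgeR log2 fold changes were -0.09 for IFIT2 (95% interval -3.11 to 2.93), 0.35 for IFIT3 (-3.33 to 4.03) and -0.00 for IFIT5 (-1.87 to 1.87), and the adjusted p was 1.00 for each. No member had an unadjusted p under 0.05, which 0.208% of all genes had, and DESeq2 called none of the members and 1 gene in all. In donors 92 and 99 all 3 genes were higher with the STING agonist, by 20.0-fold and 2.58-fold for IFIT2, while in donor PC all 3 were lower, with ratios of 0.599, 0.936 and 0.605 for IFIT2, IFIT3 and IFIT5. Intervals of this width hold large differences in either direction.

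The CpG libraries resembled the untreated ones in level. IFIT2 was at 2.14, 6.34 and 3.39 CPM, IFIT3 at 1.08, 3.12 and 1.34 CPM and IFIT5 at 14.7, 14.6 and 13.9 CPM in donors 92, 99 and PC. IFIT3 was higher than untreated in 3 of 3 donors (9.15% of all genes were), by 1.46- to 1.59-fold, with overlapping groups. The edgeR log2 fold changes were 0.03, 0.60 and -0.04, with adjusted p of 1.00, and none had an unadjusted p under 0.05, which 0.278% of all genes had; DESeq2 called 0 genes.

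The rest of the interferon pathway was followed with lists of genes in both agonist comparisons. Among ligands, receptors and transducers, 3 of 14 tested genes had an unadjusted p under 0.05 and a higher level after the TLR3 agonist, and 3 of 14 after the STING agonist, with none lower. Among them were IRF9 and STAT2, which act together in driving IFIT transcription. IRF9 went from 25.1 CPM to 144 CPM with the TLR3 agonist and 212 CPM with the STING agonist, and STAT2 from 27 to 66.2 and 80.0 CPM (group means). IFNAR1 and IFNAR2, the receptor chains, had log2 fold changes of -0.54 and -0.42 with the TLR3 agonist and -0.52 and -0.45 with the STING agonist. The median of the list was -0.01 and 0.07, beside 0.02 and 0.01 over all genes tested. IFNB1, the type I interferon made first after nucleic acid sensing, had 2 counts in donor PC's TLR3 agonist library and 0 counts in the other MSC libraries. The floor of 3 counts was worth 0.0621 to 0.105 CPM in those other libraries.

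Of 17 tested sensors, adaptors and interferon regulatory factors, 7 had an unadjusted p under 0.05 and a higher level with each agonist and none had a lower one. ZBP1, a sensor of Z-form nucleic acid, was at 0.0930 CPM untreated, 62.3 CPM with the TLR3 agonist and 86.3 CPM with the STING agonist. DHX58 (LGP2) went from 1.46 to 163 and 237 CPM, and IFIH1 (MDA5) from 1.85 to 47.2 and 57 CPM, both receptors for double-stranded RNA. IRF7, a factor that amplifies interferon transcription, went from 11.5 to 450 and 1351 CPM, and TLR3 itself from 1.82 to 19.6 and 26.9 CPM. STING1, the adaptor bound by 2′3′-cGAMP, was at 14.8, 15.0 and 19.8 CPM, and the log2 fold changes of IRF3 and MAVS with the TLR3 agonist were 0.06 and -0.01. Of 10 feedback regulators 1 had an unadjusted p under 0.05 with each agonist, USP18, which removes ISG15 and dampens IFNAR signalling (log2 fold change 5.03 and 5.65).

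Of the other interferon-stimulated genes, 45 of 52 tested had an unadjusted p under 0.05 and a higher level after the TLR3 agonist, and 49 of 52 after the STING agonist, with none lower. Their median log2 fold change was 2.90 and 3.47, beside which IFIT2 and IFIT3 were higher under each agonist and IFIT5, at 2.92 under both, was close to the first and below the second. The smallest p-values belonged to HERC5, ISG15 and HERC6 after the TLR3 agonist and to ZC3HAV1, HERC6 and SP110 after the STING agonist. HERC5 ligates ISG15, a ubiquitin-like protein, and had a log2 fold change of 4.52 beside 6.84 for ISG15. Reference genes of steady expression had 0 of 11 with a p under 0.05 and medians of 0.05 and -0.05. Without the TLR3 agonist library of donor 92, 49 of 52 interferon-stimulated genes had a p under 0.05 after that agonist, with a median of 3.4. These lists were chosen with results of these data known and are given as counts only.

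CD68, a lysosomal protein usually taken as a macrophage marker, moved with the IFIT genes in MSC. It was at 12.2 to 14.9 CPM untreated, 10.0 to 138 CPM with the TLR3 agonist and 53.3 to 324 CPM with the STING agonist, and it made up most of the summed CPM of the 17 macrophage markers, 13.1 to 17.4, 11.3 to 139 and 55.2 to 326. PTPRC, the pan-leukocyte marker CD45, reached at most 0.239 CPM and CSF1R at most 0.304 CPM in any MSC library, and CD163, AIF1 and C1QB were at 0 in all 3 groups. The part of CD68-expressing cells in the IFIT values was not tested.

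In joint cells the IFIT levels differed first by cell type. With resting MSC-CM, IFIT2 was at 65.3, 218 and 171 CPM in macrophages given medium of donors AG1, ORC and PC, at 2.68, 2.06 and 4.13 CPM in synoviocytes and at 2.99, 4.37 and 4.20 CPM in chondrocytes. IFIT3 was at 64.4, 320 and 199 CPM in macrophages, 0.569, 0.294 and 0.792 CPM in synoviocytes and 0.427, 0.357 and 0.424 CPM in chondrocytes. For both genes every macrophage library was above every synoviocyte and chondrocyte library. IFIT5 was at 15.0, 52.1 and 34.3 CPM in macrophages, 18.3, 17.5 and 16.6 CPM in synoviocytes and 26.1, 27.2 and 26.7 CPM in chondrocytes, so that its macrophage group overlapped both others.

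**Figure D2:**
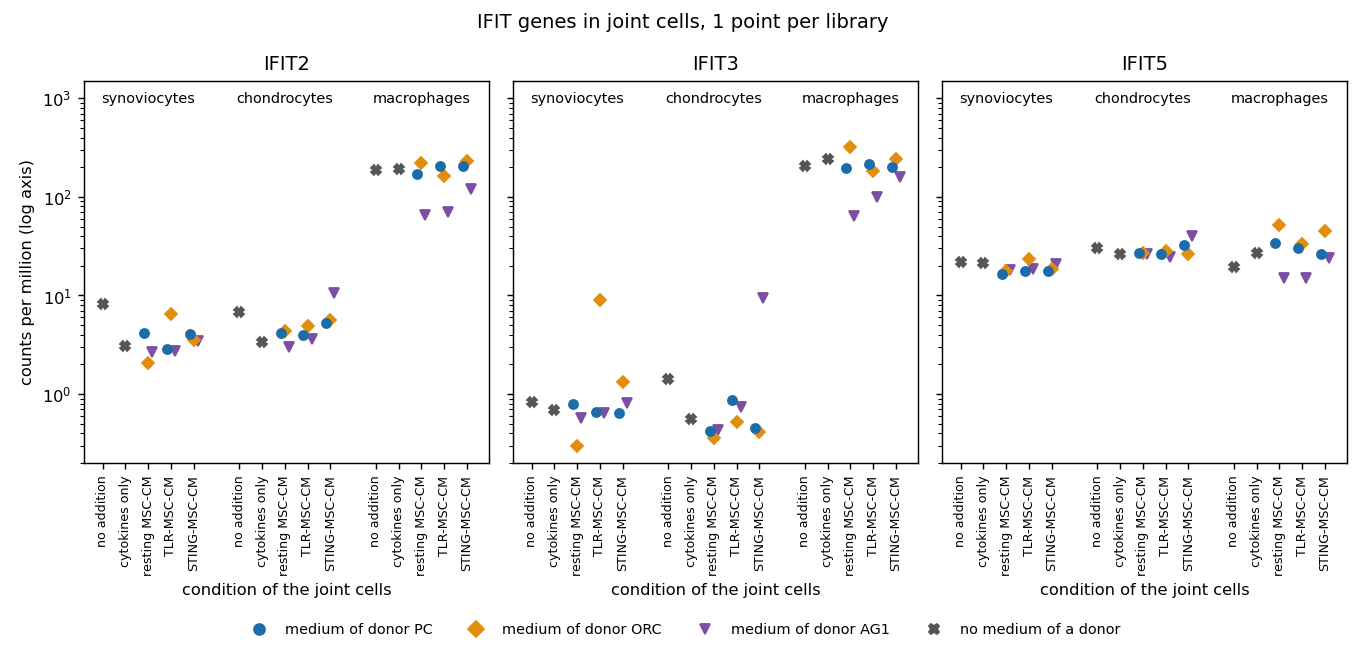
CPM of the IFIT genes on a log axis in joint cells, 1 point per library, by cell type and condition, with symbols for the MSC donor of the medium. IFIT2 and IFIT3 were at 64.4 CPM or more in every macrophage library and at 10.7 CPM or less in every other joint cell library, IFIT5 overlapped between cell types, and 1 synoviocyte library (ORC, TLR-MSC-CM) and 1 chondrocyte library (AG1, STING-MSC-CM) stood above their groups for IFIT3 at 8.93 and 9.44 CPM.

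Against synoviocytes, macrophages had edgeR log2 fold changes of 5.65 for IFIT2 (SE 0.519, adjusted p = 1.2e-05) and 8.42 for IFIT3 (SE 0.724, adjusted p = 8.3e-06). Against chondrocytes they were 5.30 (SE 0.506, adjusted p = 1.6e-05) and 8.88 (SE 0.747, adjusted p = 7.1e-06). By the methods, libraries of a cell type held cells of 1 horse given different media. In comparisons between cell types the p-values therefore do not measure the spread between animals. Cell type cannot be told apart from horse, if the animals differed, or from the cytokine doses, which differ in the labels. Calls were common in these comparisons, with 71.5% and 71.4% of 15599 genes past the adjusted threshold and 36.5% and 36.6% called higher in macrophages. The groups of 39.6% and 38.5% of all genes did not overlap in this direction. IFIT5 was called against synoviocytes (log2 fold change 0.92, SE 0.358, adjusted p = 0.0424) although its AG1 medium library was below all 3 synoviocyte libraries, and without the macrophage library of ORC medium the call was lost (0.48, adjusted p = 0.164). It was also lost without the macrophage library of PC medium or any 1 of the synoviocyte libraries (adjusted p = 0.0786 to 0.0970) and with the MSC donor as a block (0.82, adjusted p = 0.0790). IFIT5 was not called against chondrocytes (0.33, SE 0.353, adjusted p = 0.428), but was without the macrophage library of AG1 medium (0.70, adjusted p = 0.00265).

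Between chondrocytes and synoviocytes 0 of 3 IFIT genes passed the adjusted threshold, which 18.1% of all genes passed. Chondrocytes had log2 fold changes of 0.35 for IFIT2 (95% interval -0.80 to 1.5), -0.47 for IFIT3 (-2.79 to 1.86) and 0.60 for IFIT5 (-0.21 to 1.41), with edgeR adjusted p of 0.698, 0.821 and 0.298. The IFIT5 groups did not overlap, with chondrocytes higher, as for 18.1% of all genes. Of 53 other interferon-stimulated genes, 25 were called lower and 2 higher in chondrocytes than in synoviocytes, with a median of -0.95. In macrophages 53 of 53 were called higher than in synoviocytes and 51 of 53 higher than in chondrocytes, with medians of 4.10 and 5.49. IFNB1 had 0 counts in every synoviocyte and chondrocyte library and was at 0 to 0.272 CPM in macrophages, and TLR3 was at 0.404 to 1.03 CPM in synoviocytes, 0 in chondrocytes and 13.9 to 40.1 CPM in macrophages with resting MSC-CM.

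In each joint cell type, TLR-MSC-CM and STING-MSC-CM were compared with the same libraries of resting MSC-CM. In synoviocytes given TLR-MSC-CM the IFIT genes were high in 1 library. IFIT3 was at 0.643, 8.93 and 0.653 CPM with medium of AG1, ORC and PC, and the ORC library stood 30.4-fold above the same donor's resting MSC-CM library. IFIT2 was at 2.72, 6.44 and 2.87 CPM and IFIT5 at 18.5, 23.3 and 17.8 CPM, again with ORC highest, while the other libraries lay within or close to the range with resting MSC-CM. Log2 fold changes from edgeR were 0.41 for IFIT2 (SE 0.342, adjusted p = 0.685), 2.55 for IFIT3 (SE 1.22, adjusted p = 0.550) and 0.18 for IFIT5 (SE 0.104, adjusted p = 0.558).

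IFIT5 was higher in 3 of 3 donors, as were 14.9% of all genes. No member passed with edgeR, as 0% of all genes did, and none had an unadjusted p under 0.05 (9.07% of all genes had). DESeq2 called neither IFIT2 nor IFIT5 among 2 genes called, and gave no p for IFIT3. Without the ORC library the values were -0.07, 0.23 and 0.07 for IFIT2, IFIT3 and IFIT5. In the same library 43 of 51 interferon-stimulated genes had their highest value of the 9 synoviocyte libraries with CM, against 23.1% of 14584 genes. The list's median log2 fold change was 0.31 with that library and 0.01 without it, and the number of list genes with an unadjusted p under 0.05 and a higher level went from 6 of 51 to 2 of 50. Only 50 of the 51 genes passed the count filter without that library, so the sets compared are not the same. Summed macrophage markers in the synoviocyte libraries with TLR-MSC-CM were 13.7 to 15.6 CPM, with AIF1, TYROBP, CSF1R and C1QB at 0.

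With STING-MSC-CM the synoviocytes held 0.817, 1.34 and 0.645 CPM of IFIT3, 3.49, 3.53 and 4.05 CPM of IFIT2 and 20.8, 18.5 and 17.7 CPM of IFIT5 for AG1, ORC and PC. Every group overlapped the resting MSC-CM group, and IFIT5 was higher in 3 of 3 donors, as were 16.5% of all genes. From edgeR the log2 fold changes were 0.30, 0.71 and 0.11 for IFIT2, IFIT3 and IFIT5 (adjusted p = 0.827, 0.910 and 0.770), with none at an unadjusted p under 0.05 (6.67% of all genes). DESeq2 called neither IFIT2 nor IFIT5 and gave no p for IFIT3. Against TLR-MSC-CM the edgeR log2 fold changes were -0.10, -1.84 and -0.06 (adjusted p = 1.00 each, with 1.93% of all genes and no member at an unadjusted p under 0.05), and without the ORC library with TLR-MSC-CM 0.38, 0.48 and 0.05.

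Chondrocytes given STING-MSC-CM likewise had 1 library that stood apart. IFIT3 was at 9.44, 0.409 and 0.452 CPM with medium of AG1, ORC and PC, the first 22.1-fold above its resting MSC-CM library and the others close to theirs. IFIT2 was at 10.7, 5.61 and 5.27 CPM and IFIT5 at 40.6, 26.6 and 32.6 CPM. For IFIT2 all 3 libraries were above all resting MSC-CM libraries, by 3.56-, 1.29- and 1.25-fold within the donors AG1, ORC and PC. IFIT2 and IFIT3 were higher in 3 of 3 donors, as were 15.4% of all genes.

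The edgeR log2 fold changes with STING-MSC-CM in chondrocytes were 0.87 for IFIT2 (SE 0.282, unadjusted p = 0.0124), 3.03 for IFIT3 (SE 1.14, unadjusted p = 0.0285) and 0.29 for IFIT5 (SE 0.131, unadjusted p = 0.0542), each with an adjusted p of 1.00. IFIT2 and IFIT3 were thus among the 0.79% of 14304 genes with an unadjusted p under 0.05, and 0% passed the adjusted threshold with edgeR or DESeq2. DESeq2 gave no p for IFIT3 in chondrocytes. The groups did not overlap for IFIT2, as for 2.47% of all genes in this direction, and IFIT3 met the thresholds of the study, as did 0.266%. Without the AG1 library the values were 0.50 (unadjusted p = 0.0672), 0.10 and 0.15 for IFIT2, IFIT3 and IFIT5, and no member kept an unadjusted p under 0.05.

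In that AG1 library 45 of 50 interferon-stimulated genes were at their highest of the 9 chondrocyte libraries with CM, against 21.5% of all genes. The list had 19 of 50 genes with an unadjusted p under 0.05 and a higher level and a median of 0.92, and without the library 2 of 46 and a median of 0.25. Only 46 of the 50 genes passed the count filter without that library, so some were measured only through it. The counts and medians with and without it thus rest on different sets of genes. CD68 was at 38.3 CPM in it and at most 15.8 CPM in the other libraries of the group, while PTPRC had 0 counts there and MRC1, CD163, SPI1 and C1QB were at 0 in all 3. Summed macrophage markers were 15.0 to 40.8 CPM with STING-MSC-CM against 15.0 to 17.2 CPM with resting MSC-CM, and their part in the result was not tested.

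With TLR-MSC-CM the chondrocytes held 3.63, 4.91 and 3.99 CPM of IFIT2, 0.739, 0.522 and 0.869 CPM of IFIT3 and 24.4, 28.3 and 26.6 CPM of IFIT5 for AG1, ORC and PC. IFIT3 was higher than with resting MSC-CM in 3 of 3 donors (9.76% of all genes) and without overlap (1.45%), on 17 to 47 counts against 9 to 16. On the log2 scale edgeR gave 0.13 (95% interval -0.50 to 0.77), 0.82 (-1.80 to 3.45) and -0.00 (-0.30 to 0.29), with adjusted p of 1.00, and none had an unadjusted p under 0.05 (0.517% of all genes). DESeq2 called 0 genes and gave no p for IFIT3. Of the other interferon-stimulated genes 0 of 50 had an unadjusted p under 0.05, with a median of 0.02. STING-MSC-CM against TLR-MSC-CM gave log2 fold changes of 0.74 for IFIT2 (SE 0.280), 2.20 for IFIT3 (SE 1.07) and 0.29 for IFIT5 (SE 0.131), each with an edgeR adjusted p of 1.00. IFIT2 was the 1 member with an unadjusted p under 0.05, as were 0.727% of all genes, and it was higher in 3 of 3 donors (15.9%) with no overlap (2.49%). Without the AG1 library with STING-MSC-CM they were 0.37, -0.73 and 0.16.

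In macrophages the IFIT genes were high with every medium. IFIT2 was at 71.0, 162 and 205 CPM with TLR-MSC-CM and 120, 230 and 206 CPM with STING-MSC-CM of AG1, ORC and PC. IFIT3 was at 99.1, 184 and 214 CPM and at 158, 244 and 203 CPM, and IFIT5 at 15.1, 33.4 and 30.1 CPM and at 24.1, 45.6 and 26.4 CPM. For each gene the AG1 library was the lowest of its group in every medium, and every group with activated MSC medium overlapped the resting MSC-CM group. Within AG1, STING-MSC-CM stood above resting MSC-CM by 1.84-, 2.45- and 1.60-fold for IFIT2, IFIT3 and IFIT5, whereas within ORC the ratios were 1.05, 0.762 and 0.876.

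The edgeR log2 fold changes in macrophages with TLR-MSC-CM were -0.10, -0.28 and -0.41 for IFIT2, IFIT3 and IFIT5 (SE 0.529, 0.540 and 0.50). With STING-MSC-CM they were 0.28 (-0.94 to 1.49), 0.03 (-1.21 to 1.28) and -0.09 (-1.24 to 1.06). IFIT2 was higher with STING-MSC-CM in 3 of 3 donors, as were 18.9% of 15052 genes. Adjusted edgeR p-values ran from 0.950 to 0.998, none had an unadjusted p under 0.05 (2.1% and 4.6% of all genes), and DESeq2 called none of the members among 0 and 9 genes. The difference between the 2 activated media was 0.37, 0.31 and 0.32, with adjusted p of 0.898, 0.918 and 0.903. IFIT2 was higher in 3 of 3 donors there (14.5% of all genes), and no member had an unadjusted p under 0.05 (6.42%) or was called by DESeq2, which called 31 genes. The other interferon-stimulated genes had medians of -0.08 and 0.09, with 1 of 53 at an unadjusted p under 0.05 for each medium.

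**Figure D3:**
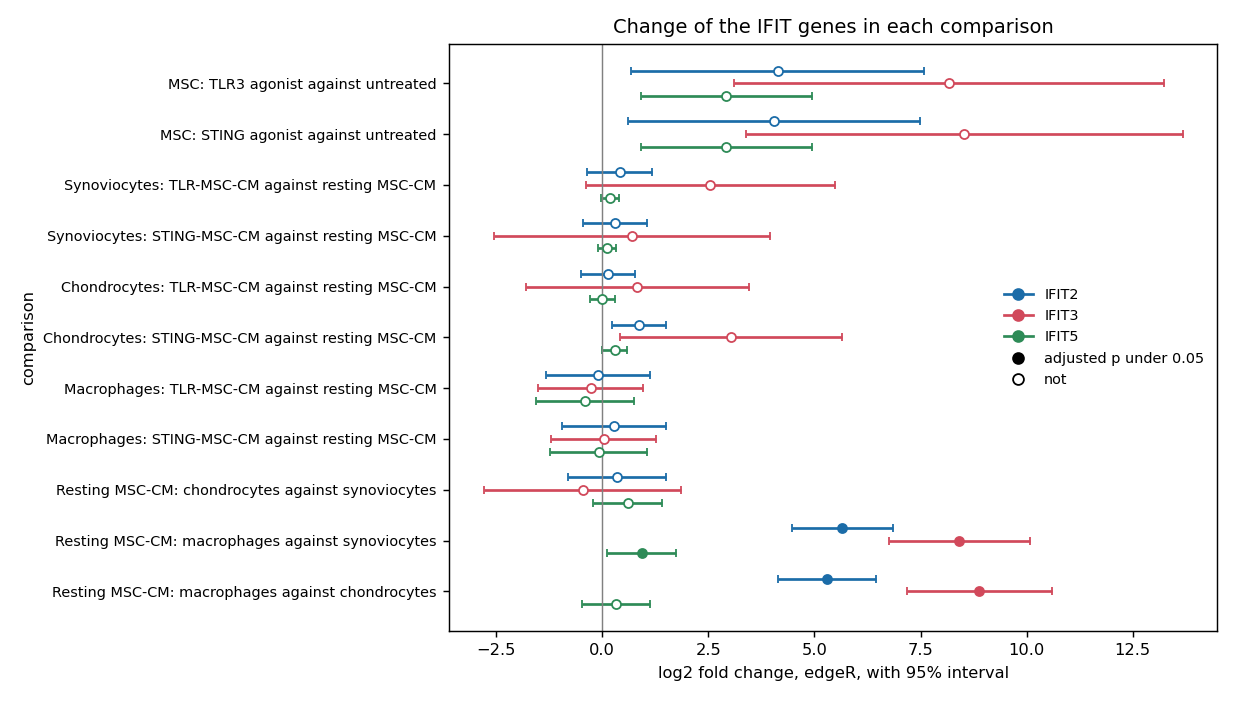
Log2 fold change of each IFIT gene in 11 comparisons with its 95% interval, from edgeR; filled points passed an adjusted p of 0.05. The filled points are IFIT2 and IFIT3 in both macrophage comparisons and IFIT5 against synoviocytes, and the widest interval is that of IFIT3 for the STING agonist in MSC, at 3.38 to 13.67.

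Whether the change with medium differed among cell types was tested with interaction terms over the 27 joint cell libraries with CM. For TLR-MSC-CM the unadjusted edgeR p-values were 0.750, 0.165 and 0.446 for IFIT2, IFIT3 and IFIT5 and for STING-MSC-CM 0.591, 0.128 and 0.722, all with an adjusted p of 1.00. An unadjusted p under 0.05 was seen for 0 of 3 members and for 2.29% and 2.76% of 16584 genes. No gene passed the adjusted threshold with edgeR (0%), and DESeq2 called 0 and 9 genes, none of them a member. A difference in response between synoviocytes, chondrocytes and macrophages was therefore not detectable for these genes with 3 libraries a group.

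Cells with the cytokines alone and cells with no addition had 1 library each, with no replicates and no test. In synoviocytes IFIT2 was at 8.24 CPM with no addition (exact Poisson 95% interval 7.27 to 9.30) and 3.05 CPM with cytokines (2.43 to 3.77). In chondrocytes it was at 6.75 CPM (5.79 to 7.83) and 3.39 CPM (2.84 to 4.01). The library without cytokines was thus the higher one in both stromal cell types, and IFIT2 with cytokines alone lay inside the range with resting MSC-CM. With cytokines alone IFIT3 in chondrocytes and IFIT5 in synoviocytes lay above that range, and the other values, macrophages included, lay inside it.

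IFIT3 in chondrocytes was at 1.43 CPM with no addition (1.01 to 1.97) and 0.556 CPM with cytokines (0.349 to 0.842), whereas in synoviocytes the intervals overlapped, at 0.821 CPM (0.536 to 1.20) and 0.689 CPM (0.415 to 1.08). IFIT5 was at 22.1 and 21.3 CPM in synoviocytes and 30.5 and 26.5 CPM in chondrocytes. Macrophages went the other way for IFIT3, from 204 CPM (199 to 210) with no addition to 244 CPM (238 to 250) with cytokines, and for IFIT5, from 19.6 to 26.7 CPM, while IFIT2 was at 188 and 192 CPM.

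Over all 19 groups the order of the levels differed between the members. IFIT2 was highest in the 5 macrophage groups, with means of 146 to 192 CPM, followed by MSC with the TLR3 agonist (66.1 CPM) and the STING agonist (64.3 CPM). The remaining 12 groups lay at 2.96 to 8.24 CPM. With single libraries passed over, each replicated group overlapped the next in that order, apart from the steps below MSC with the STING agonist and below chondrocytes with STING-MSC-CM. IFIT3 was highest in MSC with the STING agonist (448 CPM) and the TLR3 agonist (336 CPM), then in the macrophage groups at 166 to 244 CPM, and all other groups were at 0.403 to 3.43 CPM. Every macrophage library was above every library of these lower groups, whereas the TLR3 agonist group reached down to 0.171 CPM in donor 92. IFIT5 was highest in the same MSC groups (113 and 109 CPM), and from 33.8 CPM in macrophages with resting MSC-CM down to 14.4 CPM in CpG-labelled MSC every replicated group overlapped the next. MSC and joint cells were counted in separate tables, and their levels are set side by side without a test.

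The balance among the members was compared within libraries, as the log2 ratio of their counts, which needs no scaling for depth. IFIT3 to IFIT2 was -1.5 ± 0.71 in untreated MSC and 2.63 ± 0.43 with the STING agonist, a difference of 4.13 that was positive in 3 of 3 donors (two-sided exact permutation test, p = 0.1, the smallest that 3 against 3 allows). With the TLR3 agonist it was 1.00 ± 3.01, a difference of 2.49 from untreated (exact permutation p = 0.4), with donor 92 at -2.41 and the highest donor at 3.29. IFIT3 counts thus moved from below to above IFIT2 counts in each agonist-treated MSC library but the TLR3 agonist library of donor 92.

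IFIT5 to IFIT2 was 2.22 ± 1.40 untreated, 1.80 ± 2.18 with the TLR3 agonist and 1.04 ± 0.89 with the STING agonist. The difference from untreated was -0.42 (exact permutation p = 0.7) and -1.18 (p = 0.3), and with the STING agonist 0 of 3 donors were higher. With resting MSC-CM, IFIT3 to IFIT2 was -2.43 ± 0.27 in synoviocytes, -3.19 ± 0.39 in chondrocytes and 0.25 ± 0.29 in macrophages, and IFIT5 to IFIT2 was 2.61 ± 0.56, 2.81 ± 0.27 and -2.17 ± 0.13. Macrophages and MSC therefore differed in this balance. IFIT5 counts were below IFIT2 counts in all macrophage libraries and above them in all MSC libraries, with or without an agonist.

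**Figure D4:**
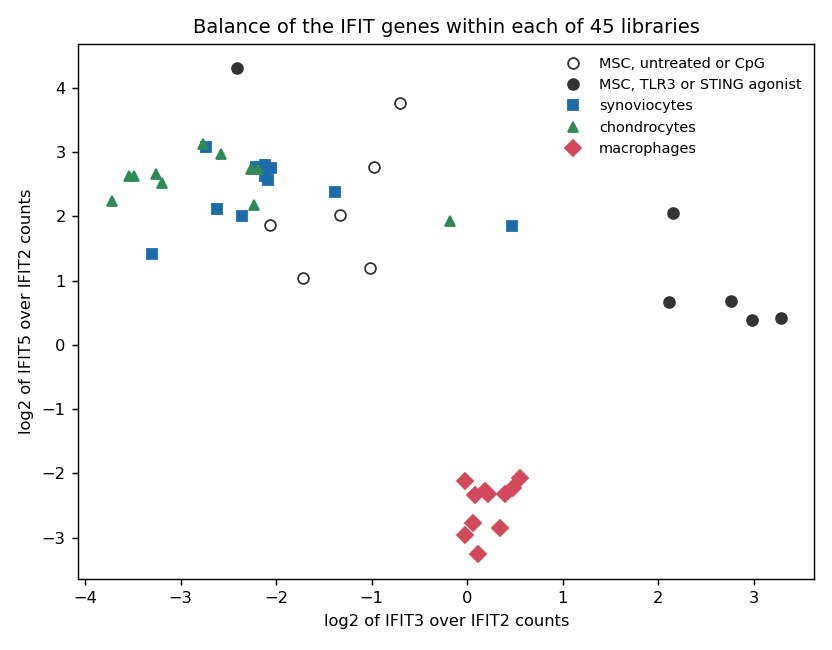
Log2 ratio of IFIT5 to IFIT2 counts against that of IFIT3 to IFIT2 counts within each of 45 libraries; filled circles are MSC with the TLR3 or STING agonist and open circles MSC that were untreated or labelled CpG. Macrophages formed a group of their own with IFIT5 to IFIT2 from -3.26 to -2.07, 5 agonist-treated MSC libraries lay at the right, and the TLR3 agonist library of donor 92 lay at the upper left at an IFIT3 to IFIT2 of -2.41.

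The IFIT genes were set beside the mean log2(CPM + 1) of 53 other interferon-stimulated genes in each library. In MSC that mean was 2.95 to 3.25 untreated, 6.30 to 6.85 with the STING agonist and 3.02, 6.10 and 7.05 with the TLR3 agonist in donors 92, 99 and PC. In joint cells it was 3.79 in the ORC library of synoviocytes with TLR-MSC-CM and 3.67 in the AG1 library of chondrocytes with STING-MSC-CM, the same libraries that were high in IFIT3, and 6.49, 7.40 and 7 in macrophages with resting MSC-CM of AG1, ORC and PC. IFIT5 in macrophages was low for that mean beside MSC with the STING agonist, at 15.0 to 52.1 CPM with resting MSC-CM against 80.0 to 163 CPM. With the TLR3 agonist IFIT5 was at 269 CPM in MSC of donor PC but at 37.3 CPM in donor 99, inside that macrophage range.

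**Figure D5:**
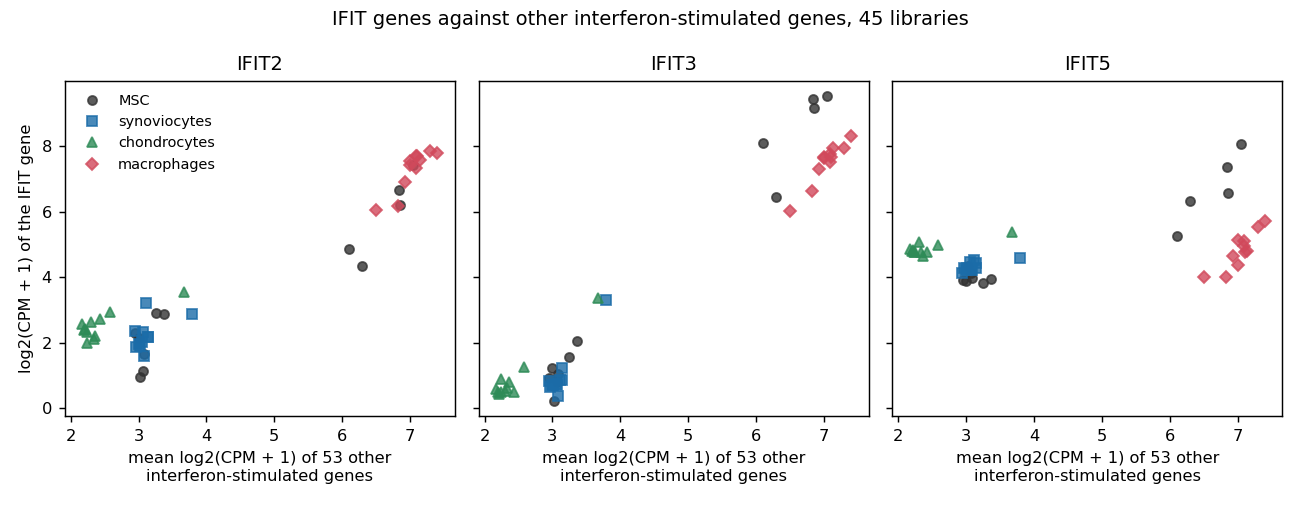
Log2(CPM + 1) of each IFIT gene against the mean log2(CPM + 1) of 53 other interferon-stimulated genes, 1 point per library, by cell type. For IFIT2 and IFIT3, libraries with a mean of 6.10 or more lay above all others. Among synoviocytes IFIT2 was highest with no addition (8.24 CPM, mean 3.11), above the ORC library with TLR-MSC-CM (6.44 CPM, mean 3.79). IFIT5 in macrophages lay below MSC with the STING agonist and below donor PC's TLR3 agonist library, whose mean was 7.05 beside 7 in macrophages with resting MSC-CM of donor PC. Donor 99's TLR3 agonist library, at a mean of 6.10, lay inside the macrophage range of IFIT5.

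Genes with the pattern most like each member were ranked by Pearson's r of log2(CPM + 1). Over the 12 MSC libraries and 11822 genes, the genes most like IFIT2 included ZNFX1 (r = 0.986), PARP15 (0.983), SHISA5 (0.980) and UBA7 (0.980). IFIT3 was most like OAS1, OASL and OGFR (0.994 each) and the Ensembl genes ENSECAG00000012132 and ENSECAG00000004433 (0.994 and 0.994), and IFIT5 like RSAD2 (0.986), EIF2AK2 (0.979) and 3 genes known by Ensembl identifier only (0.976 to 0.978). Between members, r was 0.968 for IFIT2 and IFIT3, 0.922 for IFIT2 and IFIT5 and 0.924 for IFIT3 and IFIT5, so that 62 genes ranked above IFIT2 in likeness to IFIT3. These libraries share donors and agonists, and the values are a description.

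Over the 33 joint cell libraries with the mean of each cell type taken out and 12461 genes, IFIT2 was most like TLR3 (r = 0.870), then IFIH1 (0.828) and SPATS2L (0.799) among genes with a symbol. Among such genes IFIT3 was most like DDX60L (0.927), OASL (0.922) and HERC6 (0.903). IFIT5 was most like ENSECAG00000032492 (0.880), followed by SLC9A9 (0.831), TLR3 (0.808), LATS2 (0.807) and TRIM22 (0.802). Between members r was 0.750 for IFIT2 and IFIT3, 0.729 for IFIT2 and IFIT5 and 0.628 for IFIT3 and IFIT5. Libraries of a cell type share their cells and those with one medium donor share the medium.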

How the data were processed

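The authors trimmed reads with cutadapt 1.12, aligned them with STAR to EquCab3.0, used HTSeq 0.11.0 with Ensembl gene models for counting and restricted the tables to protein-coding genes; the deposited values are raw counts, not normalized. Whether counting used strand, and how reads shared by IFIT paralogs were assigned, is not given in the sources used here, so the split of reads among near-identical copies is uncertain. The tables hold 20881 genes, 3971 of them by Ensembl identifier only, and 41 of the largest values, in 6 genes other than the IFIT genes, are written with fewer digits. CPM was computed from total counts. A separate fit per cell type used edgeR 4.0.16 (TMM, quasi-likelihood test with robust estimation, group term only) in R 4.3.3, after a filter of 10 counts over all libraries, and Benjamini-Hochberg adjustment over all genes tested. Resting MSC-CM groups, the CpG label and the interaction terms had fits of their own. Ratios took a pseudocount of 0.5 counts and likeness a mean of at least 1 CPM.

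Alternatives were DESeq2 1.42.0, its size factors in edgeR, no filter on low counts, edgeR's filterByExpr, the MSC donor as a replicate block, and each library left out in turn. On leaving out a library, only the comparisons that use its group were refitted. Fits without robust estimation and without single doubted libraries or donor AG1 were added after seeing the data. Libraries were paired by the donor name in the labels, which in joint cells is read as the MSC donor of the medium; deviations from group means had a median correlation between libraries of a donor of 0.821 in MSC, 0.067 in synoviocytes, 0.676 in chondrocytes and 0.440 in macrophages. No 2 libraries of a group agreed within sampling noise. The fits were also run on simulated data with a capped or fixed spread and no donor effects, which does not show how they perform on the spread seen here. The members and the lists were chosen with earlier results of these data known, and the genes named from the lists are up to 3 per list with the smallest p, plus some named for their role or as markers after their values were seen. Other IFIT genes, sequences and EquCab3.0 coordinates were not used here, and 1 gene of the lists is not reported here.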

Additional observations from a re-analysis of the deposited data

How the results depend on the processing

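The number of IFIT genes with an adjusted p under 0.05 was 0 with edgeR for each agonist in MSC. With DESeq2 it was 1 for the TLR3 agonist and 2 for the STING agonist, and with DESeq2 without the TLR3 agonist library of donor 92, chosen after seeing the data, 3 for each. Leaving out each library in turn with edgeR gave 0 to 1 for the TLR3 agonist. With the MSC donor as a replicate block the log2 fold changes of IFIT2, IFIT3 and IFIT5 were 3.06, 6.93 and 2.14 for the TLR3 agonist (edgeR adjusted p = 1.00 each) and 3.99, 8.12 and 2.71 for the STING agonist (adjusted p = 0.435, 0.404 and 0.418). IFIT5 in macrophages against synoviocytes lost its call with the block (0.82, adjusted p = 0.0790) and with no filter (adjusted p = 0.0576), and without any 1 of 5 libraries. IFIT5 in macrophages against chondrocytes gained a call without the macrophage library of AG1 medium, and the other member counts kept their value under the alternatives run. The block changed no other call of a member, while over all genes it called 2 in place of 0 for the STING agonist, 1 and 2 in chondrocytes and 99 and 412 in macrophages for STING-MSC-CM against resting MSC-CM and TLR-MSC-CM. Of 594 alternative fits of the 48 member fold changes, 538 were counted as keeping direction and side of the threshold. Fits without an adjusted p were counted by direction alone. Of the others, 11 came to pass the threshold, 7 no longer did and 38 reversed, 32 of them on leaving out 1 library. The cause was not tested. For STING against TLR3 agonist the reversals outside of leaving out a library were IFIT2 0.94 and IFIT5 0.57 with the block, IFIT5 0.00055 with no filter and IFIT3 -0.22 with DESeq2 without donor 92. In macrophages with STING-MSC-CM they were IFIT3 -0.23 without donor AG1 and IFIT5 0.016 with the block. Leaving out each library in turn, reversed results ranged as follows. STING against TLR3 agonist ran from -0.66 to 2.00 for IFIT2, -0.23 to 1.56 for IFIT3 and -0.50 to 1.88 for IFIT5. The CpG label ran from -0.47 to 0.65 for IFIT2 and -0.10 to 0.060 for IFIT5. In synoviocytes IFIT2 with TLR-MSC-CM ran from -0.073 to 0.73, and STING- against TLR-MSC-CM from -0.31 to 0.38, -2.37 to 0.48 and -0.14 to 0.050 for IFIT2, IFIT3 and IFIT5. In chondrocytes TLR-MSC-CM ran from -0.030 to 0.24 for IFIT2 and -0.072 to 0.061 for IFIT5, and STING- against TLR-MSC-CM from -0.73 to 2.72 for IFIT3. In macrophages TLR-MSC-CM ran from -0.47 to 0.27, -0.70 to 0.29 and -0.77 to 0.046, STING-MSC-CM from -0.088 to 0.64, -0.38 to 0.60 and -0.45 to 0.37, and STING- against TLR-MSC-CM for IFIT5 from -0.039 to 0.56. IFIT5 in macrophages against chondrocytes ran from -0.12 to 0.70. Among the log2 ratios in MSC, IFIT3 to IFIT2 between the agonists ran from -0.068 to 2.78, IFIT5 to IFIT2 from -1.68 to 0.35 for the TLR3 agonist against untreated and from -1.44 to 0.50 between the agonists. DESeq2 gave no p for IFIT3 in synoviocytes and chondrocytes, for a reason that was not checked. Low counts limit IFIT3 there, at 8 to 23 counts with resting MSC-CM in synoviocytes.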

Other observations

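LIPA, a lysosomal acid lipase, and CH25H, which makes an oxysterol with antiviral activity, lie beside the IFIT genes on chromosome 1 of the TB-T2T assembly, LIPA between IFIT5 and IFIT3. They were named after that gene order was read. Other protein-coding genes lie in the same stretch, among them SLC16A12 beside IFIT5, and their values are not given here. In MSC, LIPA was at a mean of 17.8 CPM untreated, 19.4 CPM with the TLR3 agonist and 23 CPM with the STING agonist, with log2 fold changes of 0.18 (SE 0.181) and 0.36 (SE 0.182) and an edgeR adjusted p of 1.00 for each. CH25H was at 2.62, 2.7 and 2.44 CPM, with log2 fold changes of 0.06 and -0.15 (SE 1.15 each). Between joint cells with resting MSC-CM, LIPA was at a mean of 621 CPM in macrophages against 31.6 CPM in synoviocytes and 13.8 CPM in chondrocytes. LIPA was called higher in macrophages than in synoviocytes (log2 fold change 4.27) and chondrocytes (5.48) by edgeR.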
